A study of Mus musculus with 139 samples.

Results

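The 12 intestine libraries of a mouse small RNA tissue atlas were set against 118 libraries of 9 other organs, on microRNA (miRNA) genes alone. They were chosen by label: the libraries labelled intestine, against those labelled brain, heart, muscle, lung, liver, kidney, pancreas, spleen and bone marrow. The whole series lists 139 samples, of which 134 have a column in the count table. Testis was not part of the comparison, and the library labelled Pancreas 11 was left out. Of 6114 rows in the table, 2207 are classed as miRNA, 1313 had a count in the 130 libraries used, and 475 passed the filter on low counts and were tested. All animals were wild-type C57BL/6J mice, an inbred laboratory strain, adult and 3 months old, and the labels name no treatment and no transgene. The column names give animals 1 to 10 as female and animals 11 to 14 as male. Each intestine library came from a different animal, numbered 1 to 10, 13 and 14. The other organs came from these animals and from animals 11 and 12, which have no intestine library here. The labels do not say which segment of the intestine was taken. RNA was total RNA of whole tissue pieces, so fewer cells of a type and less RNA per cell cannot be told apart in any of these values.

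A miRNA is cut from a hairpin precursor and guides a silencing complex to messenger RNAs that pair with its seed, the bases 2 to 8 of the mature strand. The gut wall holds a renewing epithelium of absorptive, secretory and hormone-producing cells over a connective tissue with vessels, immune cells and nerves, wrapped in smooth muscle. Several miRNAs are known for these layers: the related miR-192 and miR-215 with their neighbour miR-194 in intestinal epithelium, the miR-200 family in epithelia generally, and the neighbours miR-143 and miR-145 in smooth muscle and other mesenchymal cells. In the table each row counts reads over a whole hairpin gene, so both arms of a hairpin are in 1 value.

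The mature strands below carry the main findings. The first group is shown because miR-192 and miR-215 share a seed (capitals, bases 2 to 8) and differ at C1A, A12U and C20A, counted from the 5′ end with the miR-192 base first. Positions are from RefSeq on GRCm38.p6, the build family of the count table, and each strand is written 5′ to 3′.
miR-192-5p, chr19:6264857-6264877, plus strand: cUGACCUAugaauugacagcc
miR-215-5p, chr1:185313610-185313630, plus strand: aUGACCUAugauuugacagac
miR-194-5p, chr1:185313325-185313346 and chr19:6264658-6264679, plus strand: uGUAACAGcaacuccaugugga
miR-31-5p, chr4:88910614-88910635, minus strand: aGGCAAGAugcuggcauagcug
miR-802-5p, chr16:93369737-93369758, plus strand: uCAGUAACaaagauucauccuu

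The miR-194 strand is encoded in 2 places. The gene Mir194-1 lies on chromosome 1, 195 bases from Mir215, and both lie on the strand of the annotated gene 2010103J01Rik. The gene Mir194-2 lies on chromosome 19, 115 bases from Mir192, in no annotated host gene. The 2 mature copies are the same, so reads of the mature strand cannot be assigned to 1 locus by sequence, and the labels do not say how the counting treated such reads. The 5 strands of the miR-200 family fall into 2 seed groups, shown because all of them were called higher in intestine.
miR-200b-3p: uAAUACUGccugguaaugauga
miR-200c-3p: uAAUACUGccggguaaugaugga
miR-429-3p: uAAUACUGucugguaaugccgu
miR-200a-3p: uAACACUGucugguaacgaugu
miR-141-3p: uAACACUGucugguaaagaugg

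Levels are in CPM: a row's counts scaled to a common total of miRNA counts, after TMM, a correction for composition. A difference is the log2 fold change of intestine against the mean of the log2 levels of the 9 other organs, with its standard error, from edgeR's quasi-likelihood F test in a model of organ and library pool. A row was called at a Benjamini-Hochberg adjusted p below 0.05 over the 475 rows and a log2 difference of at least 1 in size. A second call, above each organ, asked for intestine to exceed each of the 9 organs by at least 1 and for the weakest of the 9 one-sided tests to pass the same adjusted threshold. With TMM, the median difference over all 475 rows was 0.23, and the median of a list is read beside it. Counts of called list members are read beside 143 rows called higher and 39 called lower of all 475.

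Intestine libraries held 568622 to 8642713 miRNA counts (median 3736100.5) and the others 11782 to 22366249. Of the 8 libraries under 100000, 6 were pancreas, so low miRNAs were least detectable there. Intestine had tRNA shares from 5.46% to 92.7% of all counts (median 36.7%, against a median of 6.16% in the other libraries) and only miRNA counts were used for scaling. The libraries of animals 1 to 10 were in pool N469, with those of brain, heart, muscle and bone marrow, and the libraries of animals 13 and 14 in pool N541. Liver, kidney, lung, pancreas and spleen of animals 1 to 10 were in pool N467. Pool N541 held all the male animals and no female one, so pool N541 and sex cannot be told apart in any of these values. Library descriptions also carry an index primer number. In pool N541 the intestine, brain, heart, muscle and bone marrow libraries had primers 25 to 48. The libraries used from the other 5 organs had primers 1 to 24, and Pancreas 11, which was left out, had primer 33. For those 5 organs, organ and the pair of pool and primer set cannot be told apart, and a fit to the 4 organs that share pools and primer sets with intestine is given where it differs. In pool N469, 5 intestine libraries, of animals 1 to 5, had primers 1 to 24 and 5, of animals 6 to 10, had primers 25 to 48. Primer set and animal therefore cannot be told apart in any split of these libraries named below. Of 144 miRNAs with at least 100 CPM, 6 were higher in every library of the first set and 14 lower, which is 13.9% not overlapping. The libraries Intestine 1, 5, 6, 9 and 10 also held miRNAs of pancreatic acinar cells. Calls lost without them are given below for the rows named.

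Intestine stood above the organ mean for more miRNAs than it stood below. Of the 475 rows, 143 (30.1%) were called higher and 39 (8.21%) lower. The called-higher rows included 16 not named as miRNA genes and 34 with no count at all in 1 or more organs. Among the 143, 121 had at least 1 other organ with a higher mean CPM than intestine, so for most calls intestine was not the organ with the highest mean. Only 8 rows (1.68%) were above each organ: Mir215, Mir194-1, Mir194-2, Mir31, Mir143, Mir145a, Mir98 and n-TSaga9. The last has the name of a tRNA and lost the call under 18 of 32 alternatives, leaving out Intestine 6 or Intestine 9 among them. Without Intestine 1, 5, 6, 9 and 10, n-TSaga9 lost both calls. The split of calls depended on scaling: 78.6% of calls were higher with TMM, 54.2% with miRNA totals alone (104 higher, 88 lower) and 27.3% with scaling on all small RNA classes (59 higher, 157 lower). The median over all rows moved with it, to -0.27 and -0.82. With DESeq2 size factors the split was 70.1% and the median 0.04, and with Snord43, a snoRNA by name, left out it was 67.8%. In the fit to the 4 organs sharing pools and primer sets, 86 were higher and 118 lower of 423, with a median of -0.30.

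**Figure D1:**
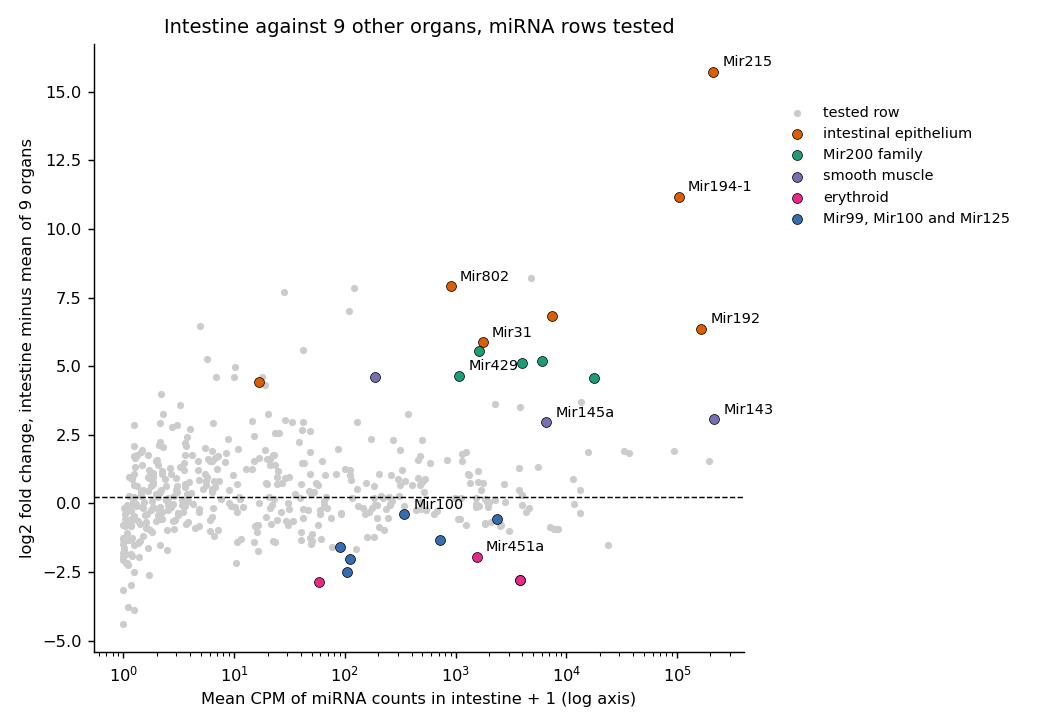
Each point is 1 of the 475 miRNA rows tested, with its mean level in the 12 intestine libraries (CPM + 1, log axis) against its log2 difference from the mean of the 9 other organs, and coloured points belong to the lists named in the legend. The dashed line is the median of all rows, 0.23, and Mir215 is the highest point at 15.74.

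Mir215 and Mir194-1, both of the intestinal epithelium list, had the highest differences of the named miRNAs. All 7 members of that list were called higher (median 6.82), 4 of them above each organ. Together the genes Mir192, Mir194-1, Mir194-2 and Mir215 made up 34.3 ± 7.39% (SD, n = 12) of intestinal miRNA counts, from 20.4% in Intestine 6 to 45.5% in Intestine 8. In liver they made up 16.6 ± 5.19% (n = 13), in kidney 1.93% and in the other organs at most 0.166% on average. The highest share in any library of another organ was 26.0%, in a liver library, so the ranges of intestine and liver overlapped and those of intestine and the other 8 organs did not.

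Mir215 separated intestine from every other organ most widely. It ranged from 95868 to 467314 CPM in the intestine libraries with a median of 198311, and the highest of the 118 other libraries, a liver library, had 117 CPM. The groups therefore did not overlap. The difference from the organ mean was 15.74 ± 0.53 (adjusted p = 4.38e-57), and the smallest difference from a single organ was 13.25 ± 0.75, against heart. Pancreas gave 1 read of Mir215 in 11 libraries, so the fitted value leans on a prior count there. Mean levels in the other organs were 33.9 CPM in liver, 22.3 in heart, 12.3 in lung, 12.1 in bone marrow, 8.02 in brain, 6.96 in muscle, 6.52 in kidney, 2.09 in spleen and 0.134 in pancreas. Mir215 kept the call above each organ under all 34 alternatives run, with a smallest difference between 5.47 and 13.52.

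Mir192, which shares the seed of Mir215, was instead a miRNA of intestine, liver and kidney. The intestine libraries ranged from 50678 to 296899 CPM with a median of 163586, and the liver libraries from 59879 to 393708 with a median of 150363, so these groups overlapped. The difference between them was 0.11 ± 0.29 (adjusted p = 0.763). Kidney followed with a mean of 41984 CPM, 2.27 ± 0.29 below intestine, and each of the other 7 organs was between 452 and 1115 CPM on average. Intestine was the highest organ in 6 of 12 animals, among them animal 3, which had no liver library. This count and the later ones by animal use the organs present in each animal, 6 to 10 with intestine included. The difference from the organ mean was 6.37 ± 0.19 (adjusted p = 2.53e-62).

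The 2 Mir194 genes lie next to these 2 genes and their counts differed in the same way. Mir194-1, next to Mir215, ranged from 25079 to 164294 CPM in intestine with a median of 105446, and no other library exceeded 1465 CPM. Its difference was 11.18 ± 0.25 (adjusted p = 1.36e-76), and against liver, the next organ with a mean of 912 CPM, it was 5.91 ± 0.36. Mir194-2, next to Mir192, ranged from 1808 to 13308 CPM in intestine with a median of 6722, and liver had a mean of 1570 CPM, 1.44 ± 0.37 below intestine. Of the other libraries, 8 reached the lowest intestine value of Mir194-2 and none that of Mir194-1. Summed over libraries, Mir194-1 had 14.3 counts for each count of Mir194-2 in intestine, 0.591 in liver and 0.451 in kidney. Mir194-2 lost the call above each organ under 10 of 33 alternatives. These included leaving out Intestine 14 and leaving out Intestine 1, 5, 6, 9 and 10. Mir194-1 kept that call under all 33.

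Mir31, a miRNA described in gut epithelial renewal, ranged from 552 to 2459 CPM in intestine with a median of 1889. In liver it ranged from 194 to 940 CPM and in lung from 79.5 to 256 CPM, so only liver overlapped with the lowest intestine libraries. The difference from the organ mean was 5.88 ± 0.23 and from liver 2.16 ± 0.35 (adjusted p = 6.15e-08). It lost the call above each organ under scaling on all small RNA classes and with Pancreas 11 included. Intestine was the highest organ in each of 12 animals for Mir215, Mir194-1, Mir194-2 and Mir31, which are 0.842% of the rows tested, and the lowest in each animal for none.

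Mir802 and Mir147 were called higher without being above each organ. Mir802, known from pancreatic islets, liver and gut, had 242 to 1330 CPM in intestine with a median of 913. Pancreas had a mean of 2132 CPM (-1.32 ± 0.63 for intestine minus pancreas, adjusted p = 0.0792) and liver 492 CPM (0.79 ± 0.61, adjusted p = 0.265). Kidney had 78.5 CPM, and the remaining 6 organs were under 1 CPM on average. Mir147, a miRNA described in macrophages and gut epithelium, was low, from 0 to 46.3 CPM in intestine, and bone marrow had a mean of 19.5 CPM (-0.30 ± 0.31, adjusted p = 0.387).

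**Figure D2:**
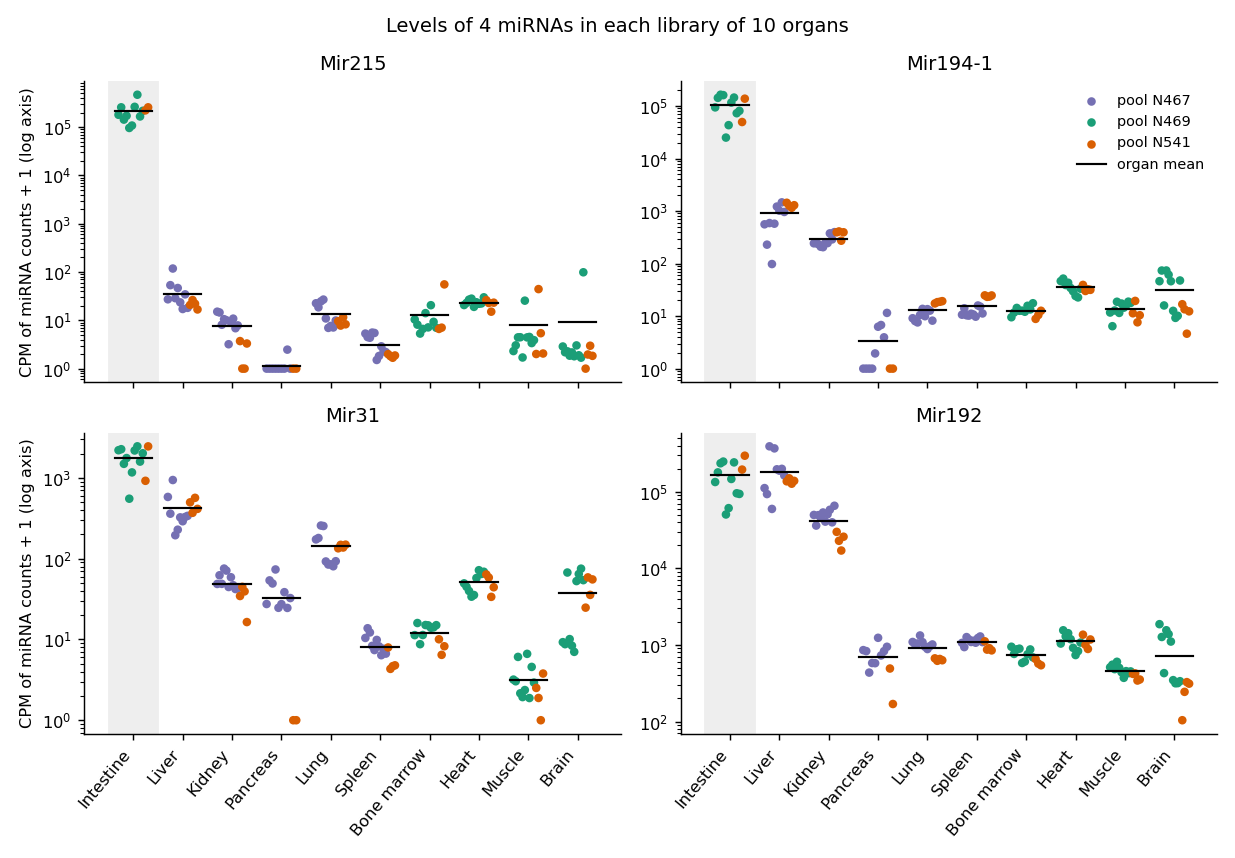
Levels of Mir215, Mir194-1, Mir31 and Mir192 (CPM + 1, log axis) in every library, by organ, with points coloured by library pool and a black line at each organ's mean. Intestine is separate from all organs for Mir215 and Mir194-1, touches liver for Mir31 and overlaps liver for Mir192.

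All 5 members of the Mir200 family, which holds the epithelial state by repressing the Zeb transcription factors, were called higher, with a median of 5.11. They are made from 2 clusters, Mir200b, Mir200a and Mir429 on chromosome 4 and Mir200c and Mir141 on chromosome 6. Mir200c had the largest difference, 5.56 ± 0.39, with 899 to 2550 CPM in intestine and a median of 1512. Pancreas, with a mean of 1399 CPM, did not differ from it beyond its error (0.09 ± 0.67, adjusted p = 0.931). Mir200b differed by 5.17 ± 0.41, with a range of 1916 to 10864 CPM in intestine. Kidney (mean 4989 CPM, 0.12 ± 0.65) and pancreas (mean 3734 CPM, 0.64 ± 0.69) overlapped with intestine, and lung (1733 CPM), brain (431 CPM) and the other organs were lower.

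Mir200a (5.11 ± 0.37), Mir429 (4.65 ± 0.41) and Mir141 (4.57 ± 0.38) likewise had pancreas, kidney or lung as the next organs. Mir141 was uneven among the intestine libraries, from 4064 to 68178 CPM with a median of 10057, and the highest value was Intestine 14. In that library the family took 5.37% of miRNA counts, against 1.10% to 2.84% in the other 11. No member was above each organ. The organ with the smallest difference was pancreas or kidney for each member, and lung came before kidney for Mir200c (2.22 against 3.27) and Mir141 and before pancreas for Mir429 (0.69 against 1.65). In the fit to the 4 organs that share pools with intestine all 5 were called higher too, with Mir200b at 8.13. That fit called 86 of all 423 rows higher.

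The Mir183 cluster, a set of 3 neighbouring miRNAs known from sensory cells and other epithelia, was called higher in full (median 3.50). Mir182 had a median of 12931 CPM in intestine (4931 to 24068) and differed by 3.68 ± 0.35, Mir183 by 3.50 ± 0.35 and Mir96 by 2.98 ± 0.37. Brain libraries spread from 174 to 262265 CPM for Mir182, so the brain mean of 26471 CPM rests on a few of them, and intestine minus brain was -0.78 ± 0.45 (adjusted p = 0.0975). Pancreas, with a mean of 13179 CPM, did not differ beyond its error (0.21 ± 0.59).

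The 2 miRNAs of stratified epithelium were split in level. Mir203, which restrains proliferation in skin, had 626 to 4012 CPM in intestine with a median of 2325, and liver had a mean of 1169 CPM. Its difference from the organ mean was 3.64 ± 0.20 and from liver 0.94 ± 0.31 (adjusted p = 0.00663), just under the size asked for in the call above each organ. Mir205 had 7.23 CPM in intestine and 52.4 CPM in kidney, and its difference of 1.5 ± 0.50 (adjusted p = 0.00772) lost its call without Intestine 1, 5, 6, 9 and 10, at 1.02, and with scaling on miRNA totals, at 0.88.

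The smooth muscle miRNAs made up another large part of intestinal miRNA. Of 4 in the list 3 were tested and all 3 called higher (median 3.06), 2 of them above each organ. Mir143 and Mir145a took 17.4 ± 7.49% of miRNA counts in intestine, against 10.9% in lung and 9.87% in spleen. Mir143 was the miRNA with the highest mean in intestine, from 120240 to 352797 CPM with a median of 213673. Lung ranged from 33711 to 130359 CPM and heart from 26641 to 98125 CPM, so the lowest intestine libraries overlapped with lung. The difference was 3.06 ± 0.18 from the organ mean and 1.45 ± 0.29 from lung (adjusted p = 5.59e-06). Intestine was the highest organ in 11 of 12 animals.

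Mir145a, the neighbour of Mir143, ranged from 2012 to 13409 CPM with a median of 5851. Its difference was 2.96 ± 0.22 from the organ mean and 1.46 ± 0.33 from spleen. Both miRNAs were split by index primer set in pool N469: Mir143 had 120240 to 188520 CPM with primers 1 to 24 and 194685 to 352797 with primers 25 to 48, and Mir145a had 3483 to 6330 and 8831 to 13409 CPM. In the 2 libraries of pool N541, also with primers 25 to 48, Mir143 had 232661 and 237223 CPM, within the range of the second set, and Mir145a 2012 and 2044 CPM, below both sets. Primer set and animal cannot be told apart in these 2 sets, and the part of either in the spread was not tested. Intestine 5 and 6, the libraries with the highest tRNA shares (88.7% and 92.7%), had the highest shares of Mir143 and Mir145a, 25.5% and 34.3%, and the lowest shares of the Mir192, Mir194 and Mir215 genes, 22.9% and 20.4%. Without Intestine 1, 5, 6, 9 and 10, Mir143 differed by 2.70 and Mir145a by 2.45, and neither was above each organ. Both also lost that call with scaling on miRNA totals or on all classes, Mir143 with Pancreas 11 included, and Mir145a in pool N541 alone and with no filter on low counts. Mir490, known from smooth muscle and heart, differed by 4.62 ± 0.30 and was lower than in heart (mean 749 CPM against 185 CPM, -2.01 ± 0.35).

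**Figure D3:**
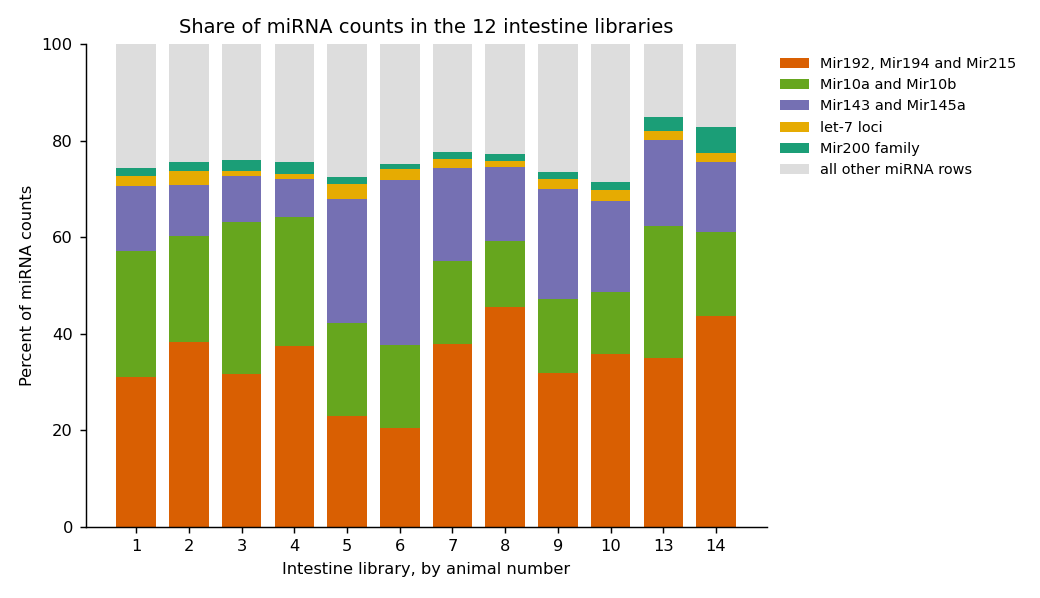
Percent of miRNA counts in each of the 12 intestine libraries, by animal number, stacked for the Mir192, Mir194 and Mir215 genes, Mir10a and Mir10b, Mir143 and Mir145a, let-7, the Mir200 family and all other miRNAs. The first set spans 20.4% to 45.5%, and Intestine 5 and 6 have the largest shares of Mir143 and Mir145a, 25.5% and 34.3%.

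Other cell types of the gut wall gave smaller differences. The 4 stromal miRNAs, which are known from fibroblasts and other mesenchymal cells, were all called higher (median 1.42): Mir199b by 1.73 ± 0.23, Mir199a-1 by 1.58 ± 0.21, Mir214 by 1.27 ± 0.18 and Mir199a-2 by 1.17 ± 0.19. Heart had higher means for the 3 Mir199 genes, for example 1156 CPM against 480 CPM for Mir199b (-1.29 ± 0.29). With scaling on miRNA totals 1 of the 4 was called, and with scaling on all classes none. Of all rows, those scalings called 104 of 475 and 59 of 476 higher. Mir214 was just under the size threshold without Intestine 14. Mir126a, the endothelial miRNA of the list that was tested, was called lower at -1.02 ± 0.29 (adjusted p = 0.00156), with 903 to 6584 CPM in intestine against a mean of 23627 CPM in lung. This call lies at the size threshold and was lost in pool N541 alone (-0.54), without libraries under 100000 counts (-0.93) and on leaving out Intestine 1, 2, 3, 4 or 13 (-0.99 to -0.96). It was among the miRNAs split by primer set, 903 to 2233 CPM with primers 1 to 24 and 3018 to 6584 CPM with primers 25 to 48.

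The miRNAs encoded within Hox gene clusters mark position along the body axis. Mir10a and Mir10b differ in their mature strand at U12A, with the miR-10a base first.
miR-10a-5p: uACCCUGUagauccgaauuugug
miR-10b-5p: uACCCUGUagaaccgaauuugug
The pair made up 20.6 ± 6.06% of intestinal miRNA counts (median 18.3%), and 70.8% in kidney. Lung had a median of 21.9% and muscle one of 17.4%, with 1 muscle library at 63.9%. Mir10a had a median of 187655 CPM in intestine (88503 to 363567), was called higher at 1.56 ± 0.29 (0.94 and not called with miRNA totals, 0.65 and not called with all classes), and was lower than in kidney (mean 731354 CPM, -2.22 ± 0.46). Mir10b had a median of 65232 CPM (24824 to 208364), was called higher at 1.89 ± 0.33, and was lower than in kidney and in muscle. Both strands have 23 bases, and the order of their levels differed between organs: Mir10a had the higher mean in intestine, lung, liver, spleen, bone marrow and heart, and Mir10b in kidney, muscle, pancreas and brain.

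The other Hox-encoded miRNAs were close to absent in intestine. Mir196a-1, Mir196a-2 and Mir196b, from the posterior part of the clusters, had means of 0.179, 0.413 and 3.83 CPM in intestine, and their highest intestine libraries had 0.978, 1.52 and 11.9 CPM. Muscle had means of 326 CPM for Mir196a-1 and 590 CPM for Mir196a-2, and kidney 705 CPM for Mir196b. None of the 3 was called against the organ mean, and each of the 3 had no count in 1 or more other organs. Mir615 was called higher (2.95 ± 0.47) at 5.45 CPM, below muscle at 63.3 CPM and kidney at 59.7 CPM.

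The endocrine miRNAs were called higher in full (4 of 4, median 3.95). Mir375, known from pancreatic islets and gut hormone cells, ranged from 1424 to 7530 CPM in intestine with a median of 4842, in the range of no other organ. Pancreas was above it, from 14589 to 68957 CPM, and lung below it, from 387 to 831 CPM. The difference was 8.20 ± 0.33 from the organ mean, 3.97 ± 0.51 from lung and -1.93 ± 0.55 from pancreas (adjusted p = 0.00195). Mir7b (5.58 ± 0.49), Mir7-2 (2.32 ± 0.36) and Mir7-1 (1.96 ± 0.28) were all below pancreas. Mir7-1 and Mir7-2 were split by primer set, Mir7-2 with 282 to 730 CPM with primers 1 to 24 and 45.4 to 138 CPM with primers 25 to 48. In pool N541 alone 2 of the 4 were called, against 80 of all 451 rows called higher.

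Acinar miRNAs were present in only some of the intestine libraries. Mir216a had 228, 252, 404, 391 and 168 CPM in Intestine 1, 5, 6, 9 and 10 and at most 0.357 CPM in the other 7, against a mean of 4068 CPM in pancreas. These libraries stand in both primer sets of pool N469. All 3 tested members of the list were called higher over all 12 libraries (median 7.69), and none without those 5 libraries, where Mir216a was -0.68 and Mir217 was -1.63. Of all rows, 106 of 510 were called higher without those libraries. The same 5 libraries held 0.0382% to 0.0831% of miRNA counts on the acinar list, and pancreas libraries 0.410% to 2.43%. Mir375 is also abundant in pancreas, and its difference without these 5 libraries was 7.72; for Mir802 it was 7.59.

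Erythroid miRNAs were below the organ mean. All 4 tested erythroid rows were called lower (median -2.79). Intestine had the lowest mean summed share of the list, 0.702 ± 0.272% of miRNA counts against organ means from 2.20% in pancreas to 32.4% in bone marrow. Mir144 had 23.0 to 94.4 CPM in intestine and was called lower at -2.87 ± 0.36, but did not differ from brain beyond its error (0.03 ± 0.34). Mir486 and Mir3107, which overlap on opposite strands and had 1.01 counts of the first for each of the second, were both at -2.79 ± 0.36 and are 1 measurement. Both enter the summed shares above, which therefore count that measurement more than once. Mir486 did not differ from pancreas beyond its error (0.36 ± 0.47). Mir451a ranged from 102 to 3548 CPM, with -1.94 ± 0.43 (adjusted p = 6.26e-05), and it was not separable from muscle (0.47 ± 0.42) or pancreas (-0.72 ± 0.61).

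Of the leukocyte miRNAs tested, only Mir142 was called. Mir142, found in all blood lineages, was called higher at 1.30 ± 0.30, at a median of 3527 CPM, but below spleen (mean 21940 CPM, -2.52 ± 0.44) and bone marrow (17744 CPM). Under scaling on miRNA totals or on all classes it was not called. Mir223, a neutrophil miRNA, had a median of 104 CPM in intestine and 5448 CPM in bone marrow, with a difference of 0.19 ± 0.25 (adjusted p = 0.588) that changed sign with scaling. None of the 3 lymphocyte miRNAs was called: Mir146 was 0.48 ± 0.43, Mir155 0.10 ± 0.23 and Mir150 -0.87 ± 0.33. Mir150 was called lower under 16 of 34 alternatives, among them DESeq2 size factors (-1.06), miRNA totals (-1.54), the 4-organ fit (-1.44) and leaving out Intestine 4 (-1.17) or Intestine 10 (-1.10), and Mir155 changed sign with scaling. Mir150, abundant in mature lymphocytes, had 47.4 to 637 CPM in intestine and a mean of 7741 CPM in spleen.

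Mir146, a miRNA induced in immune activation, was split by primer set. The 5 intestine libraries with primers 1 to 24 had 3693 to 10516 CPM, the 5 with primers 25 to 48 in the same pool 795 to 1563 CPM, and the 2 of pool N541, also with primers 25 to 48, 1325 to 2079 CPM. In pool N469 heart was split in the same direction, with 4869 to 6195 against 387 to 500 CPM. So were bone marrow, with 9984 to 17405 against 1090 to 1563 CPM, and brain, with 363 to 2463 against 39.3 to 211 CPM. Muscle overlapped, with 1020 to 3458 against 237 to 1343 CPM. The heart and bone marrow libraries of pool N541, also with primers 25 to 48, had 3575 to 4958 and 14997 to 16812 CPM, unlike the primer 25 to 48 libraries of pool N469. In pool N467 spleen was split the other way, 9710 to 17608 CPM with primers 1 to 24 and 22750 to 38939 CPM with primers 25 to 48. Kidney was split that way too, with 739 to 1734 and 1747 to 3212 CPM, while lung, liver and pancreas overlapped. The sum of the lymphocyte list in intestine is mostly Mir146, so it repeats this split: 0.478% to 0.695% of miRNA counts in Intestine 1 to 5 and 0.0843% to 0.159% in the others. Mir150, of the same list, overlapped in pool N469, with 49.5 to 637 CPM with primers 1 to 24 and 69.8 to 535 CPM with primers 25 to 48. Among the intestine libraries of pool N469, primer set and animal cannot be told apart. The part of either in these values was not tested.

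Markers of distant cell types were at or near 0 or at low levels. Mir122, the defining hepatocyte miRNA, reached at most 6.04 CPM in intestine, against 15223 to 67834 CPM in liver, and was not called (-1.69 ± 0.79, adjusted p = 0.064). It was called lower under 16 of 34 alternatives, among them the animal as a block (-1.91), miRNA totals (-2.29) and leaving out Intestine 5 (-2.09) or Intestine 8 (-1.95), and its sign changed in pool N469 alone. Of the 9 striated muscle miRNAs tested, 1 was called lower, Mir499 (-3.87 ± 0.65), with at most 1.21 CPM in intestine and 1353 CPM in heart, and Mir208a and Mir206 were under 1 CPM on average. Mir1a-1 had 15.8 to 204 CPM in intestine, against a mean of 112152 CPM in muscle. In the 4-organ fit, where heart and muscle are 2 of the 4, 8 of the 9 were called lower, against 118 of all 423 rows.

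Neuronal miRNAs were called higher in 11 of 15 cases and lower in 2, with a median of 1.77, but at levels far below brain. Of all 475 rows, 143 were called higher and 39 lower. The list took 0.0104% to 0.0359% of miRNA counts in intestine, against means of 0.00550% to 0.0272% in the 8 organs other than brain and 7.45% in brain. Mir137 had the largest difference (4.31 ± 0.43) at 18.1 ± 8.01 CPM, against 178 CPM in brain and 16.6 CPM in liver. Mir138-1 had 16.6 to 122 CPM in intestine, with 2.69 ± 0.30. Mir128-1 and Mir128-2 were called lower at -1.36 ± 0.28 and -1.39 ± 0.29. In the 4-organ fit 3 of the 15 were called higher and the median was -0.10, against 86 of all 423 rows and a median of -0.30. Among ciliated-cell miRNAs 1 of 4 was called, Mir449c at 1.56 ± 0.51 and 5.25 CPM, against 252 CPM in lung.

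**Figure D4:**
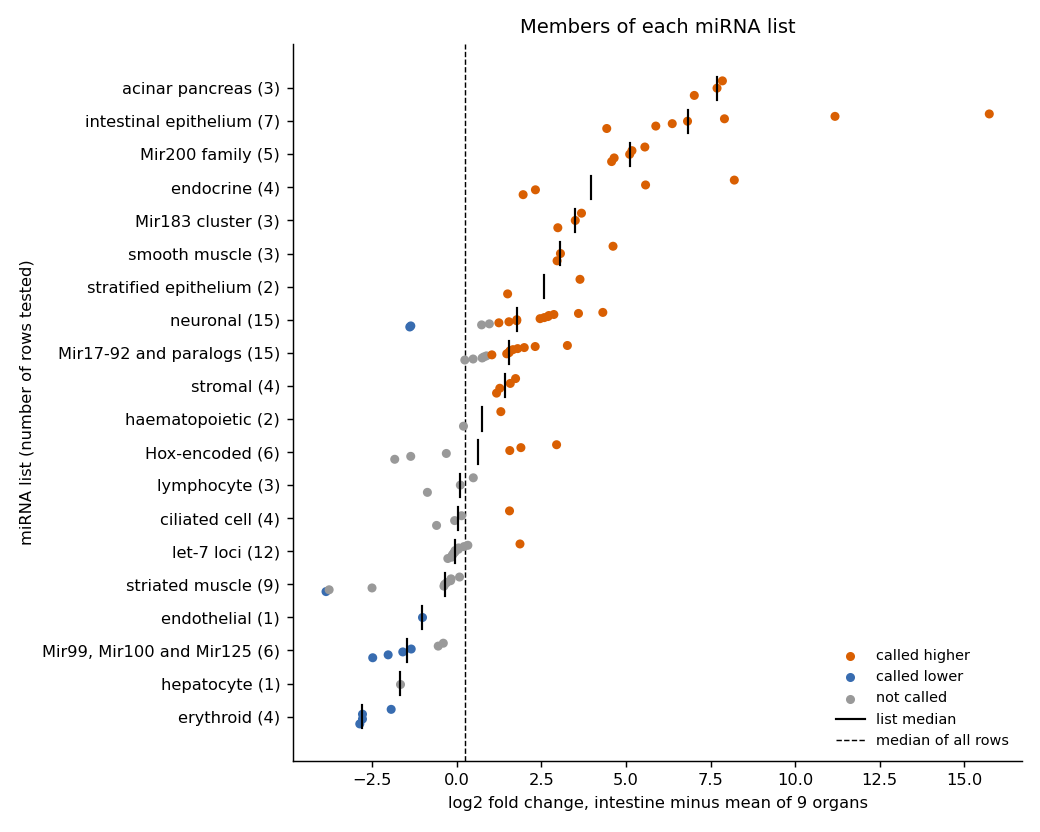
Log2 difference of intestine from the mean of 9 organs for the tested members of each list, 1 point a miRNA, coloured by call, with a bar at the list's median and a dashed line at the median of all rows, 0.23. The intestinal epithelium, Mir200 and acinar lists lie above 4 and the erythroid list lies below -1.

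The Mir17-92 cluster and its paralogs, known for their activity in dividing cells, were called higher in 10 of 15 cases and lower in none (median 1.54). Mir18 had the largest difference, 3.27 ± 0.22, with 85.3 to 798 CPM in intestine. For Mir18, bone marrow, a dividing tissue, had a mean of 274 CPM and was not separable (0.42 ± 0.27, adjusted p = 0.16), and spleen was 0.99 ± 0.35 below. Members differed in this. Mir19a (0.09 ± 0.33) and Mir19b-1 (0.12 ± 0.30) did not differ from bone marrow beyond their error, nor Mir17 from spleen (0.01 ± 0.29). Mir92-1 (-1.96 ± 0.30), Mir93 (-1.25 ± 0.21) and Mir25 (-0.99 ± 0.19) were lower than in bone marrow, and Mir92-2 was lower than in spleen (-2.73 ± 0.41). Mir19a (2.31 ± 0.28), Mir19b-1 (1.80 ± 0.26), Mir17 (1.57 ± 0.19) and Mir20a (1.47 ± 0.23) were called higher, and Mir92-1 (0.87 ± 0.25) and Mir92-2 (0.23 ± 0.28) were not. Mir19b-1 lost its call without Intestine 1, 5, 6, 9 and 10. Mir18, Mir19b-1 and Mir25 were lower in every primer 1 to 24 library of pool N469 than in every primer 25 to 48 library. The number called depended on the setting: 4 of 15 with miRNA totals, 2 with all classes and 7 without Intestine 1, 5, 6, 9 and 10. Over all rows, these settings called 104 of 475, 59 of 476 and 106 of 510 higher.

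The let-7 loci gave little difference except at Mir98. Let-7 miRNAs accumulate as cells mature and share the seed GAGGUAG. It was found in 11 of the tested rows that matched a mature sequence, and Mirlet7a-2 is not among these 11. Mir98 and Mirlet7f-2 lie 785 bases apart within Huwe1 on the X chromosome and differ in their mature strands at G11A, A12G and A19U, with the let-7f base first.
let-7f-5p, chrX:151912353-151912374, plus strand: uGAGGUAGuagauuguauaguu
miR-98-5p, chrX:151913229-151913250, plus strand: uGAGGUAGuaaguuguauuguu
Of the 12 loci, 11 were not called, with differences between -0.27 (Mirlet7d) and 0.32 (Mirlet7i) and errors of 0.15 to 0.20. Mirlet7f-2 had 2871 to 8138 CPM in intestine and a difference of -0.16 ± 0.20 (adjusted p = 0.574). Mir98 had 423 to 3056 CPM with a median of 1203, and its difference was 1.86 ± 0.18 (adjusted p = 2.71e-17).

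Each of the 9 organs had a Mir98 mean between 216 CPM (heart) and 490 CPM (pancreas). The smallest difference was 1.21 ± 0.29, from pancreas, and 27 of 118 other libraries reached the lowest intestine value. Intestine was the highest organ in 11 of 12 animals. The call against the organ mean was lost with scaling on all small RNA classes (0.62), where 9 of the 12 let-7 loci were called lower. Under that scaling 157 of all 476 rows were called lower. The call above each organ was kept under 19 of 34 alternatives. It was lost without Intestine 5 and without Intestine 1, 5, 6, 9 and 10. Without Intestine 1, 5, 6, 9 and 10 the difference of Mir98 was 1.35, and in the 4-organ fit it was 1.98.

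The Mir99, Mir100 and Mir125 genes, which lie near let-7 genes in the genome, contrasted with their neighbours. None was called higher and 4 of 6 were called lower (median -1.48). The strands of miR-99a and miR-100 differ at U16A, with the miR-99a base first, and miR-125b is shown for its own seed.
miR-99a-5p: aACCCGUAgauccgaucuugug
miR-100-5p: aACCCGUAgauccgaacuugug
miR-125b-5p: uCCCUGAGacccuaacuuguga
Mir99a had 47.1 to 412 CPM in intestine with a median of 71.6, and heart had 1068 to 3073 CPM. Its difference was -2.49 ± 0.21 (adjusted p = 2.17e-20), and intestine was the lowest organ in 10 of 12 animals. Mir99a did not differ beyond its error from bone marrow (mean 121 CPM, -0.33 ± 0.22). Mir100, a base apart, had 116 to 1100 CPM and was not called (-0.40 ± 0.21, adjusted p = 0.111), nor was Mir99b (-0.55 ± 0.25).

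All 4 tested rows with the miR-125 seed CCCUGAG were called lower. They were Mir125b-2 (-2.03 ± 0.24), Mir351 (-1.67 ± 0.28), Mir125b-1 (-1.60 ± 0.28) and Mir125a (-1.35 ± 0.44). Mir125b-2 had 51.9 to 186 CPM in intestine, against 1338 to 2263 CPM in heart and 301 to 1881 CPM in brain, where miR-125b is known to be abundant. Mir351, an X-linked relative, had a median of 136 CPM in intestine and a mean of 2970 CPM in lung. With scaling on miRNA totals or on all classes, all 6 Mir99, Mir100 and Mir125 genes were called lower. Over all rows, these scalings called 88 of 475 and 157 of 476 lower.

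**Figure D5:**
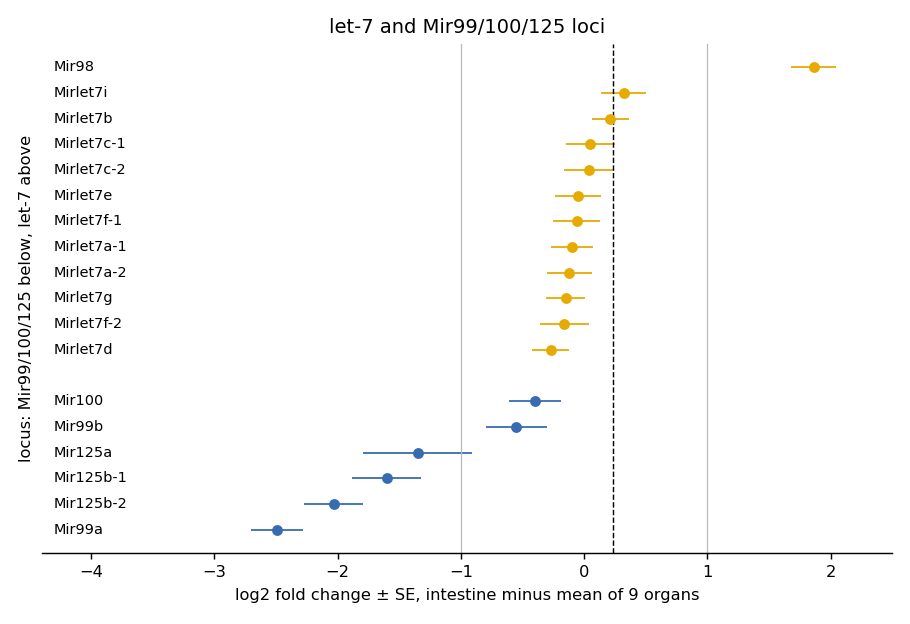
Log2 difference of intestine from the mean of 9 organs, with standard errors, for the 12 let-7 loci and the 6 Mir99, Mir100 and Mir125 loci. Mir98 stands alone at 1.86 while the other let-7 loci lie between -0.27 and 0.32, and 4 of the 6 lie at -1.35 or lower.

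Among the other lowest miRNAs were Mir874 (-2.18 ± 0.31, mean 9.34 CPM in intestine and 670 CPM in kidney), Mir149 (-1.72 ± 0.28, 15.3 CPM and 436 CPM in heart) and Mir328 (-1.59 ± 0.22, 75.3 CPM and 508 CPM in brain). Mir30a, abundant in most organs, had 12529 to 39759 CPM in intestine and 73599 to 280275 CPM in kidney, and was called lower at -1.52 ± 0.28 (adjusted p = 1.7e-06). It was still among the 10 miRNAs with the highest mean in intestine. Mir21a (1.85 ± 0.23, mean 36452 CPM) and Mir148a (1.92 ± 0.26, 33451 CPM) were also among those 10 and were called higher. Mir21a had higher means in liver (62754 CPM, -0.55 ± 0.36) and spleen, and Mir148a in pancreas (288562 CPM, adjusted p = 0.00108) and liver, so intestine was highest for neither. With scaling on all classes neither was called (0.91 for both), and Mir148a was not called without the pool term (0.97).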

How the data were processed

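Small RNA libraries from organ pieces were deposited by the authors as 1 table of raw counts per annotated small RNA gene, with no normalisation. Per the labels' protocols, total RNA was extracted with miRNeasy, libraries were made with the TruSeq small RNA kit, size-selected on a gel and read as single reads; adapter ligation favours some RNA ends, so levels of different miRNAs compare loosely. The submitters' processing notes name STAR 2.5.1, featureCounts, mm10 and GRCm38; strand and multi-mapping settings: not given in the sources used here. Of the miRNA rows, 2194 were named in GENCODE M21, and 399 of 475 tested rows matched a mature sequence in RefSeq.

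Counts of miRNA rows were tested with edgeR 4.0.16 in R 4.3.3 (limma 3.58.1), after filterByExpr by organ with a minimum count of 10 and TMM scaling (factors 0.283 to 7.73 in all libraries, 0.526 to 1.32 in intestine). The model held organ and pool (118 residual degrees of freedom), and each organ had equal weight in the mean. CPM are given as mean ± SD or as lowest, median and highest library, and the error of a log2 difference is its standard error. Replicates are separate animals. All members, lists and tests were chosen with earlier results of these data known, and the list members were taken by name. Named were the members of the epithelial, Mir200, smooth muscle and Hox lists, the 12 highest and 12 lowest called at 100 CPM or more, those above each organ, the extremes of each other list and the 10 most abundant; further members of the lists were named after their values were seen.

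Replicate numbers are animals, which pairs the organs of 1 animal. Deviations from the mean of an organ within its pool were weakly related over 147 miRNAs. The median correlation was 0.0414 for organs of 1 animal (548 pairs, 226 over 0.1). For different animals it was -0.00413 (7052 pairs, 2321 over 0.1). For intestine with another organ it was 0.0189 within 1 animal (102 pairs, 44 over 0.1). Between animals that value was -0.00287 (1314 pairs, 435 over 0.1). On simulated counts for this comparison (414 rows), all 46 and 44 rows changed by 3 and -3 on the log2 scale, all 42 changed by 1.5 and 37 of 41 changed by -1.5 were recovered, and 0 of 241 unchanged rows were called. The simulation gave every organ the same baseline, had no pool effect and set as many rows to rise as to fall. It therefore cannot show how calls behave under the differences in composition between these organs. Alternatives were other scalings, filters, DESeq2 1.42.0, the animal block, subsets of pools and libraries and leaving out each intestine library. Chosen after seeing the data were the fit to 4 organs, rows with a count in each organ, leaving out Intestine 5 and 6, and leaving out rows not named Mir.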

Additional observations from a re-analysis of the deposited data

Results flagged for a closer look

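The library labelled Pancreas 11, which was left out of the comparisons above, held Mir215 at 101637 raw CPM of its miRNA counts (838 of 8245 counts). It is given here because that level lies in the intestinal range, 81547 to 245769 raw CPM, and far above the 11 other pancreas libraries, of which the highest had 1.79. Its Mir143 level, 261613 raw CPM, also lay in the intestinal range. Mir194-1 (23651 against an intestinal minimum of 33173) and Mir192 (57975 against 58207) lay below that range, Mir31 (2426 against a maximum of 1811) above it, and Mir216a and Mir217 had 3 counts each. The index primer of Pancreas 11 was 33, in pool N541. Intestine 13 and 14 of that pool had primers 35 and 36, and Pancreas 12 and 13 had primers 14 and 15. How Pancreas 11 came to differ was not tested. With it included among the pancreas libraries, 118 miRNAs were called higher and 62 lower in intestine, and 3 were above each organ.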

How the results depend on the processing

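Against 143 higher, 39 lower and 8 above each organ, the numbers called moved by over 1.5 times under these settings, and the cause was not tested. Higher were 59 with scaling on all small RNA classes, 80 in pool N541 alone, 86 in the 4-organ fit and 91 among rows with a count in each organ. Lower were 88 with miRNA totals, 157 with all classes, 82 with the DESeq2 Wald test, 107 in pool N469 alone, 62 with Pancreas 11, 66 without Intestine 1, 5, 6, 9 and 10, 118 in the 4-organ fit and 60 among rows with a count in each organ. Above each organ were 5 with DESeq2 size factors, either other filter, the Wald test, pool N541, Snord43 left out, copies summed or rows with a count in each organ, 3 with miRNA totals, Pancreas 11 or without Intestine 1, 5, 6, 9 and 10, and 2 with all classes. With fewer organs to exceed, they were 25 in pool N469 and 28 in the 4-organ fit. With the animal as a block the numbers were 143, 42 and 7. Mir122 gained a call, Mir1a-1 changed sign (0.20) and n-TSaga9 was no longer above each organ. No other of the 84 rows named in the text changed its call against the organ mean with the block. Leaving out 1 intestine library gave 131 to 144 higher, 36 to 45 lower and 7 to 10 above each organ.

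Of the 84 rows, 62 by the rule and 22 named after their values were seen, 63 were called, and 37 kept their call in every alternative. Over the 84, 2664 of the alternative values kept direction and call, 63 gained a call, 60 lost it and 58 changed sign. Calls lost on pool N541 alone, with its 2 intestine libraries, were 15 and those lost with all classes 15. The sign changed in pool N541 for Mir196b (0.58), Mir216a (-3.66), Mir146 (-0.93), Mir92-2 (-0.38), Mir155 (-0.42), Mir206 (0.26), Mir99b (0.44) and Mir100 (0.51), and in pool N469 for Mir223 (-0.17), Mir122 (0.61), Mir208b (-2.46) and Mir34b (0.43). In the 4-organ fit it changed for Mir223 (-0.38), Mir208b (-2.29) and Mir34b (0.21). Without Intestine 1, 5, 6, 9 and 10, Mir216a was -0.68, Mir217 -1.63, Mir155 -0.05 and Mirlet7i -0.11, and without the libraries over 60% tRNA, Mir196b was 0.11. With all classes, Mir146 was -0.63, Mir223 -0.82, Mir208b -0.72, Mir92-2 -0.75, Mir155 -1.05, Mir25 -0.22, Mir92-1 -0.07 and Mirlet7i -0.78, and with miRNA totals Mir223 was -0.47, Mir208b -0.22, Mir92-2 -0.50, Mir155 -0.52 and Mirlet7i -0.12. Mir155 was -0.08 with size factors, -0.02 with no filter, -0.01 with the stricter filter, -0.07 with the Wald test, -0.15 with Pancreas 11, -0.11 without Snord43, -0.17 with copies summed and -0.15 among rows with a count in each organ. Mir223 was -0.01 with the Wald test, -0.07 with Pancreas 11, -0.03 without Snord43, -0.08 with copies summed and -0.06 among rows with a count in each organ. Mir208b was -0.03 with size factors, -0.58 with the Wald test, -0.05 with Pancreas 11, -0.02 without Snord43, -0.05 with copies summed and -0.05 among rows with a count in each organ, and leaving out 1 library gave -0.20 to 0.21. Mir92-2 was -0.01 both with Pancreas 11 and among rows with a count in each organ, and Mirlet7d was 0.00 in animals 1 to 10. Depth limits values under about 1 CPM most in pancreas, where 6 of 11 libraries held under 100000 miRNA counts.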

Other observations

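Further miRNAs of at least 100 CPM were split without overlap by index primer set among the 10 intestine libraries of pool N469. Mir3535 had 4220 to 6544 CPM with primers 1 to 24 and 334 to 842 CPM with primers 25 to 48, and 222 to 1021 CPM in the 2 libraries of pool N541. Mir22 had 1590 to 6324 CPM with primers 1 to 24 and 6958 to 21192 CPM with primers 25 to 48, and 3588 to 3708 CPM in pool N541. Mir101a had 1281 to 1770 CPM and 2208 to 3626 CPM, and 1185 to 1503 CPM in pool N541. The intestine libraries of the 2 primer sets in pool N469 also come from different animals, 1 to 5 and 6 to 10. Animal and primer set therefore cannot be told apart.

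Genes with identical mature copies divided their counts in different ways. Mir19b-1 and Mir19b-2 had a ratio of 0.997 in intestine and Mir1a-1 and Mir1a-2 one of 0.999, in contrast to the ratio of 14.3 for Mir194-1 against Mir194-2.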
